A study of Homo sapiens with 4 samples.

Results

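A set of genes for receptors of cytokines that act on myeloid cells were examined for acetylation of histone H3 at lysine 27 (H3K27Ac), a histone mark of active promoters and enhancers, in MOLM13 cells with and without SNDX-50469. They were chosen by name, with earlier results of these data known but by no threshold on a measured value, as 10 of 19675 protein-coding genes that could be placed with a strand: CSF2RB, CSF3R, IL6R, IL6ST, IL10RA, IFNGR1, IFNGR2, IFNAR1, IFNAR2 and TGFBR2. MOLM13 is an established acute myeloid leukemia (AML) cell line with a rearranged MLL (KMT2A) gene, which encodes an MLL-AF9 fusion protein, and SNDX-50469 is an inhibitor of the binding of Menin to MLL. Cells of this line in RPMI-1640 medium received either SNDX-50469 at 500 nM for 16 h or none. The treatment tag of the control reads "None", whereas the protocol gives DMSO as the vehicle. Each condition had 1 library, made by chromatin immunoprecipitation with Tn5 tagmentation of the recovered fragments, so that no difference below has a replicate check and no p-value is given. The 2 input libraries of the series were not analysed here.

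Cytokine receptors of this kind span the cell membrane, and most have no enzymatic activity of their own. On binding their ligand, the chains for growth factors, interleukins and interferons bring together JAK kinases, which phosphorylate STAT transcription factors, whereas TGFBR2 is itself a serine/threonine kinase that acts through SMAD proteins. In the myeloid lineage these receptors carry signals for granulocyte and macrophage production, for the acute-phase and anti-inflammatory responses, and for antiviral and macrophage-activating states.

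The deposited files list broad peaks, which are stretches of the genome called as enriched for H3K27Ac over a background. Whether the input libraries served as this background is not given. The control list held 245875 peaks that covered 224.2 Mb, and the SNDX-50469 list held 54061 peaks that covered 29.4 Mb. The smallest −log10 p listed was 2.68 in the control and 3.93 after treatment, and the read depth of the libraries is unknown, so that the control list also holds weaker peaks than the treated list does. The part of this in the differences below was not tested; the values with control peaks under the treated minimum left out stand in the closing section. Of all the control covered length, 9.71% was also covered after treatment. All 11 genes listed as markers of myeloid and MLL-rearranged AML cells had a control peak within 5 kb of the 5′ end, among them MPO, CEBPA, SPI1 and HOXA9, and 8 had a treated one. A peak alone did not mark the lineage, since 3 of 4 B cell genes, 4 of 5 T cell genes, 4 of 5 erythroid and megakaryocyte genes and 2 of 5 epithelial or liver genes also had a control peak there. The covered length of these other markers in the control ranged from 0 bp at HBB, KRT5, EPCAM and ALB to 10660 bp at KLF1, 12129 bp at CD79A, 13059 bp at CD4 and 18346 bp at CDH1.

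For each gene, the covered length is the number of bases under peaks, given for the stretch within 5 kb of the outermost annotated 5′ end and for the rest of the gene with 5 kb on both sides. The kept share is the percentage of the control covered length that was also under a peak after SNDX-50469. Coordinates are those of the human genome build GRCh38 (hg38). All 10 receptor genes had a control peak within 5 kb of the 5′ end, against 67.3% of all protein-coding genes, and 7 had one after SNDX-50469, against 37.4%. The exceptions after treatment were CSF2RB, IL6ST and IL10RA. The 5′ end itself lay in a control peak at 7 of the 10 genes, against 38.9% of all genes, and in a treated peak at 5, against 17.3%, namely CSF3R, IL6R, IFNGR1, IFNGR2 and IFNAR1.

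The bases just before the 5′ end of 4 of these 5 genes are given here, because H3K27Ac peaks lay over these starts in both libraries, and those of IL6ST are shown as the contrast, because neither list has a peak over them. Each stretch is the 250 bases before the outermost start, written 5′ to 3′ on the gene's own strand, from RefSeq on GRCh38.p14. Capitals mark matches, on either strand, to the interferon-γ activated sequence TTCNNNGAA, the interferon response element core GAAANNGAA, the core of the PU.1 motif GAGGAA, the CEBP motif TTGCNNAA, the CCAAT box CCAAT, the GC box GGGCGG, the TATA box TATAAA and the cyclic AMP response element TGACGTCA.
CSF3R, chr1:36483315-36483564, minus strand: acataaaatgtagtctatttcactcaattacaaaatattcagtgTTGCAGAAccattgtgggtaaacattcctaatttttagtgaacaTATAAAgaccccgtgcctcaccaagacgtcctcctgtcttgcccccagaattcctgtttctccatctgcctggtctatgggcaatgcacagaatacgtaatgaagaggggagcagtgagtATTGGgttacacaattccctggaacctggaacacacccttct
IL6R, chr1:154405093-154405342, plus strand: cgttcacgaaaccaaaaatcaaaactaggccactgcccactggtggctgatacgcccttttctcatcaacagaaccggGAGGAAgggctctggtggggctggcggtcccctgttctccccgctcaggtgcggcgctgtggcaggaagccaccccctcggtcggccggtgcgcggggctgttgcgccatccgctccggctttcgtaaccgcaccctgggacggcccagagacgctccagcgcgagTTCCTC
IFNGR1, chr6:137219386-137219635, minus strand: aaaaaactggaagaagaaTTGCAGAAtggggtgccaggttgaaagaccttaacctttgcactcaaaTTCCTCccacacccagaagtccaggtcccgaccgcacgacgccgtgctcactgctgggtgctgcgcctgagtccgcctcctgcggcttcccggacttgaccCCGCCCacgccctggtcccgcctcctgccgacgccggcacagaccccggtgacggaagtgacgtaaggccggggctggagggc
IFNAR1, chr21:33324145-33324394, plus strand: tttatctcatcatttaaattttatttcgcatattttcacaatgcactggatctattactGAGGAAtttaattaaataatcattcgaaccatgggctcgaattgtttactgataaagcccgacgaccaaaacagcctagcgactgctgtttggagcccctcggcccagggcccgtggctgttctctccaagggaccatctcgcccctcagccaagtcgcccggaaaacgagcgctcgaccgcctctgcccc
IL6ST, chr5:55994964-55995213, minus strand: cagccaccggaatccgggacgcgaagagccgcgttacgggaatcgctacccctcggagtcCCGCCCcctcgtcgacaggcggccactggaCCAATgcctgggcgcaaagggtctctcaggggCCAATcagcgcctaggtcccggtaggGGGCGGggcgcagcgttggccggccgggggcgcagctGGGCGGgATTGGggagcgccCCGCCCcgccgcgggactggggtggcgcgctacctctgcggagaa

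The start of IL6ST was the richest of these 5 in G and C, at 73.6% with 31 CpG dinucleotides, 3 CCAAT boxes and 4 GC boxes, and that of CSF3R the poorest, at 43.2% with 3 CpG. The median over 15843 promoters was 62.4% with 17 CpG. The CSF3R stretch held 1 TATA box, 1 CEBP match and 1 CCAAT box. PU.1, encoded by SPI1, and the CEBP proteins are transcription factors of the myeloid lineage. The letters of the PU.1 core were present before the outermost starts of IL6R, with 2 matches, IFNGR1 and IFNAR1, and the same letters were present in 23.4% of all promoters. The CEBP letters, in 7.23% of all promoters, were present before the outermost starts of CSF3R and IFNGR1. Both the PU.1 and the CEBP letters were also present before the listed start of IL10RA. That start lies 3551 bp inside the outermost 5′ end and was not under a treated peak. The PU.1 letters were further present before inner listed starts of CSF3R, IFNAR1 and TGFBR2. In none of the 12 listed starts of the 8 receptor genes with an entry were the letters of the interferon-γ activated sequence (6.12% of all promoters), the interferon response element (6.09%) or the cyclic AMP response element (2.32%) found. The start of IFNGR2 listed by RefSeq lies 531 bp inside the outermost 5′ end and has 5 GC boxes, 80.4% G and C and 37 CpG, and it was under a peak in both libraries. The GC box was found in 56.0%, the CCAAT box in 34.5% and the TATA box in 9.23% of all promoters.

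**Figure D1:**
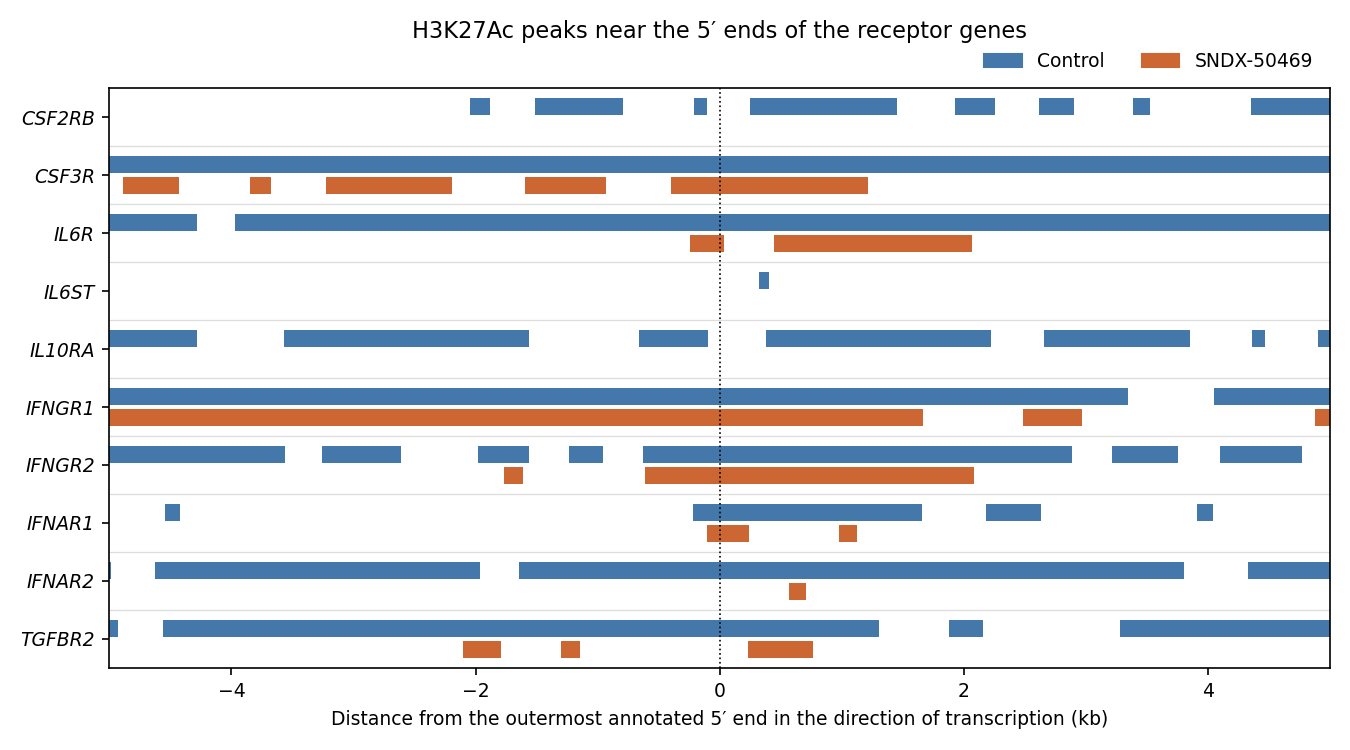
H3K27Ac peaks within 5 kb of the outermost annotated 5′ end of each receptor gene, by distance in kb in the direction of transcription, for the control (blue) and the SNDX-50469 (orange) library. Control peaks span most of the window at CSF3R, IL6R, IFNGR1 and IFNAR2, and the treated peaks are narrow or missing except at IFNGR1 and IFNGR2.

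Growth factor receptor genes differed in what was left. CSF3R encodes the receptor of granulocyte colony-stimulating factor, and CSF2RB the β chain shared by the receptors of GM-CSF, interleukin-3 and interleukin-5. CSF3R (chr1:36466043-36483314, minus strand) had 10001 bp covered within 5 kb of the 5′ end in the control, which is the whole window, and 3959 bp after SNDX-50469, a kept share of 39.6%. Over the rest of the gene it had 10147 bp in the control and 2287 bp after treatment, of which 22.3% of the control length was kept. The listed peaks were thus continuous over the promoter in the control and in separate pieces after treatment. Whether the mark itself was broken up cannot be told, since the treated list starts at a higher −log10 p and depth is unknown. A single control peak of 11074 bp (chr1:36478055-36489128), with a fold enrichment over background of 6.81, spanned the 5′ end, and after treatment 5 separate peaks of 171 to 1621 bp lay in the window, the widest of them (chr1:36482095-36483715) over the 5′ end itself. CSF3R was the only 1 of the 10 genes at which more peaks were listed after treatment, 9 against 6. At its 3′ end the control had a domain of 11794 bp (chr1:36457396-36469189) that reached into MRPS15, a mitochondrial ribosomal protein gene whose 5′ end had 9806 bp in the control and 2174 bp after treatment, so that the peaks there cannot be assigned to CSF3R alone.

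CSF2RB (chr22:36913628-36940439, plus strand) had 3608 bp within 5 kb of the 5′ end and 4934 bp over the rest in the control, in 17 peaks, and no peak in the treated list. The control peaks were narrow (median 288 bp) and weak (highest fold 3.65), and only 1 of them had a −log10 q of at least 2. None lay over the 5′ end itself. The α chains that pair with CSF2RB in the receptors of GM-CSF and interleukin-3, CSF2RA and IL3RA, had no peak in either list, which is uncertain since both lie in the pseudoautosomal region with identical copies on X and Y.

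The interleukin-6 receptor genes differed widely in the control already. IL6R encodes the ligand-binding chain for interleukin-6, and IL6ST the signal-transducing chain shared by the receptors of the interleukin-6 family. IL6R (chr1:154405343-154469450, plus strand) had 9689 bp within 5 kb of the 5′ end in the control and 1902 bp after SNDX-50469, a kept share of 19.6%. Over the rest of the gene 21081 bp in the control became 0 bp. The control peak over its 5′ end was 10419 bp wide (chr1:154401371-154411789) with a fold of 7.86. What remained were 2 peaks, of 274 bp over the 5′ end and of 1628 bp from 442 bp after it (chr1:154405785-154407412), and the other 32 of the 33 control peaks had no overlap with the treated list. IL6ST (chr5:55935095-55994963, minus strand) had 4 control peaks of at most 190 bp, 522 bp in all and 0.747% of its stretch, and no treated peak. Its highest control fold was 2.82, and its fall to 0 therefore rests on peaks close to the lower limit of the control list.

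IL10RA, which encodes the ligand-binding chain for interleukin-10, an anti-inflammatory cytokine, had no peak listed near the 5′ end after SNDX-50469. It lies at chr11:117986394-118003037 on the plus strand. In the control 6546 bp were covered within 5 kb of the 5′ end, by 7 peaks of which none lay over the 5′ end itself, and no treated peak was listed there. Only 1 of these 7 control peaks, of 567 bp, reached the smallest −log10 p of the treated list. Over the rest of the gene 11662 bp became 264 bp, a kept share of 2.26%. That remnant (chr11:118006079-118006342) lies within a control domain of 9679 bp (chr11:117997714-118007392) that runs over the 3′ part of the gene and beyond it, where the stretch also holds the 3′ end of SMIM35. Its partner chain gene IL10RB, on chromosome 21 beside IFNAR2, had 7994 bp in the control and 0 bp after treatment within 5 kb of its 5′ end, and 23616 bp and 540 bp over its whole stretch.

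In the full lists, the interferon-γ receptor genes kept the most of their covered length near the 5′ end along with CSF3R. IFNGR1 encodes the ligand-binding chain and IFNGR2 the second, signaling chain of the receptor for interferon-γ, the macrophage-activating interferon. IFNGR1 (chr6:137197484-137219385, minus strand) had 9299 bp in the control and 7273 bp after SNDX-50469 within 5 kb of the 5′ end. Its kept share of 78.2% was the highest of the 10 genes. Over the rest of the gene it had 6375 bp in the control and 90 bp after treatment, a kept share of 1.41%, so that the kept mark lay at the promoter and before it. The control domain over the 5′ end was 20158 bp wide (chr6:137216038-137236195, fold 7.34) and reached 16810 bp upstream. The treated peak was 11020 bp wide (chr6:137217715-137228734, fold 4.72), the widest treated peak at any of the 10 genes, and reached 9349 bp upstream. Its −log10 q was 3.37. With only peaks of −log10 q of at least 5, IFNGR1 and CSF3R kept 0% near the 5′ end and IFNGR2 kept 76.8%. The rank of IFNGR1 thus rests on treated peaks below that cutoff.

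IFNGR2 (chr21:33402882-33437516, plus strand) had 7506 bp in the control and 2858 bp after SNDX-50469 within 5 kb of the 5′ end, a kept share of 38.1%. Over the rest of the gene 14160 bp became 0 bp. The peak over its 5′ end had the highest fold of the 10 genes in either list, 10.2 in the control (chr21:33402257-33405770, 3514 bp) and 6.90 after treatment (chr21:33402272-33404970, 2699 bp). The treated peak covered 76.8% of the control peak and ranked 300 by fold among all treated peaks. Among the 28 treated peaks at these genes it alone reached a −log10 q of 5, which 14 of the 194 control peaks did. The folds are each set against the background used for their own list and are not compared between the lists.

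The interferon-α/β receptor genes IFNAR1 and IFNAR2, for both chains of the receptor through which type I interferons induce the antiviral state, lie on either side of IL10RB in the same direction as IFNGR2. IFNAR2 (chr21:33229938-33265664, plus strand) had the largest part of its stretch covered in the control, 79.4%, with 8809 bp within 5 kb of the 5′ end and 27476 bp over the rest. After SNDX-50469 it had 143 bp and 101 bp, with kept shares of 1.62% and 0.368%. Of the receptor genes with any treated peak, it kept the smallest share of its whole stretch, 0.672%. Its control domains of 5454 bp over the 5′ end (chr21:33228291-33233744) and 6490 bp within the gene (chr21:33235990-33242479, fold 6.15) were each reduced to 1 narrow peak. The 5′ end of IL10RB also lies in this stretch, under a control domain of 7621 bp (chr21:33261969-33269589). The peaks there cannot be assigned to IFNAR2 alone. IFNAR1 (chr21:33324395-33359864, plus strand) began from less, 2590 bp near the 5′ end and 9576 bp over the rest, and had 493 bp and 0 bp after treatment, a kept share near the 5′ end of 19.0%. Its treated peak of 345 bp (chr21:33324291-33324635) still lay over the 5′ end, where the control peak was 1876 bp wide.

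**Figure D2:**
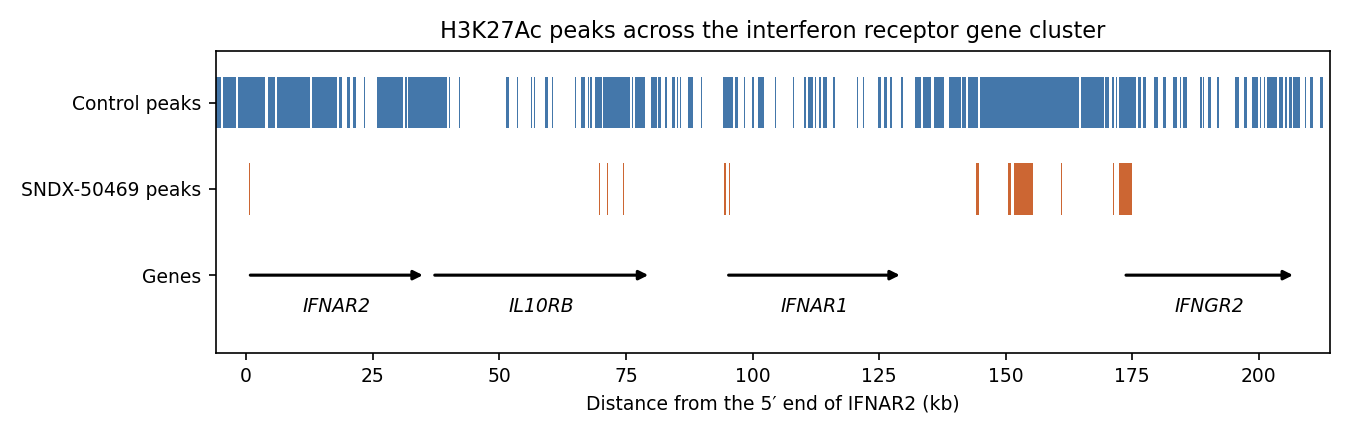
H3K27Ac peaks of both libraries across IFNAR2, IL10RB, IFNAR1 and IFNGR2 on chromosome 21, by distance in kb from the 5′ end of IFNAR2, with arrows for the genes in the direction of transcription. Of 97 control peaks 13 treated peaks are left in the same stretch, at the 5′ end of IFNGR2, at that of IFNAR1, in narrow remnants at IFNAR2 and IL10RB, and between IFNAR1 and IFNGR2.

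Across the 217579 bp from 5 kb before IFNAR2 to 5 kb after IFNGR2, 116788 bp were covered in the control and 8996 bp after SNDX-50469, and 7.48% of the control length was kept. The 3 receptor genes with their flanks held 70117 bp of this in the control and 3595 bp after treatment. More than the 3 genes together had left, 4861 bp in 4 treated peaks, lay in the 33017 bp between the stretches of IFNAR1 and IFNGR2, where the control had 29937 bp. The 3 genes share this stretch and are not independent of each other. A readthrough gene of IFNAR2 and IL10RB has the same 5′ end as IFNAR2, and the 3′ end of TMEM50B lies within the stretch of IFNGR2.

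TGFBR2, which encodes the ligand-binding kinase of the receptor for transforming growth factor β, had the longest control covered length of the 10 genes, 47013 bp. This rank rests on weaker peaks. With control peaks under the smallest treated −log10 p left out, TGFBR2 had 23065 bp and IFNAR2 had 34387 bp. TGFBR2 lies at chr3:30606356-30694142 on the plus strand. In the control 7944 bp were covered within 5 kb of the 5′ end and 39069 bp over the rest, and after SNDX-50469 998 bp and 1447 bp, with kept shares of 12.6% and 3.40%. The control peak over the 5′ end was 5875 bp wide (chr3:30601791-30607665, fold 5.83). In the treated list 3 peaks of 154 to 533 bp lay in this stretch and none over the outermost 5′ end. The nearest (chr3:30606586-30607118) began 230 bp after it and covered the start that RefSeq lists 245 bp downstream. A control domain of 12071 bp within the gene (chr3:30640077-30652147) was kept to 6.50%. An antisense gene, LOC105377015, has its 5′ end 568 bp after that of TGFBR2 and runs back over it, so that the peaks near the start cannot be assigned to either alone. TGFBR1, the gene of the partner kinase, had 8418 bp near its 5′ end in the control and 2192 bp after treatment, a kept share of 23.5%, and 36844 bp and 2496 bp over its whole stretch.

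**Figure D3:**
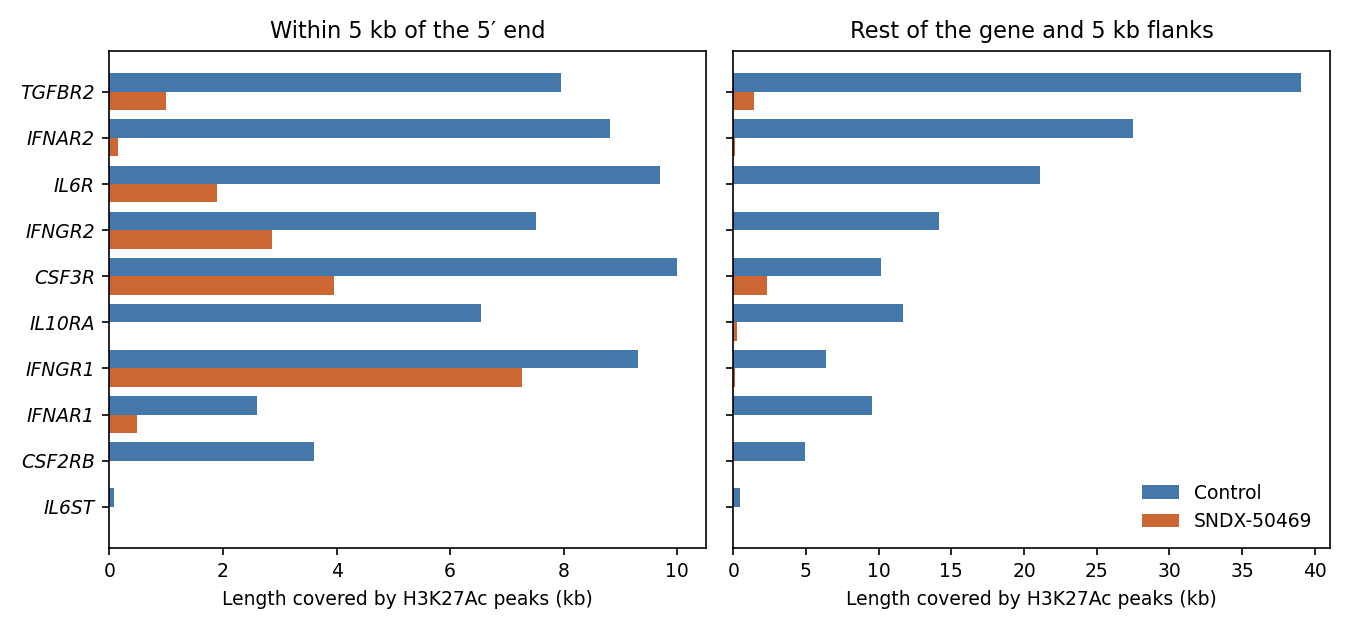
Length in kb covered by H3K27Ac peaks at each receptor gene in the control (blue) and the SNDX-50469 (orange) library, within 5 kb of the 5′ end (left) and over the rest of the gene with 5 kb on both sides (right), 1 library each. Every treated bar is shorter than its control bar, and over the rest of the gene only CSF3R and TGFBR2 have more than 1 kb left.

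Covered length was lower after SNDX-50469 at all 10 receptor genes, as it was at 98.2% of all those coding genes that held any control peak, so that the direction does not set these genes apart. With control peaks under the smallest treated −log10 p left out, it was lower at 9 of them and higher at 0, against 61.4% and 7.82% of all 19675 genes, IL6ST having no control peak left and CSF2RB 333 bp. Among genes with a control peak left, covered length was then lower at 9 of 9 receptor genes and at 96.9% of 12472 genes. With the control list cut to its strongest 3632 peaks, so that both lists covered the same length, it was lower at 4 (CSF3R, IL6R, IFNGR1 and IFNGR2) and higher at 4 (IL10RA, IFNAR1, IFNAR2 and TGFBR2), against 13.9% and 39.2% of all 19675 genes. The 4 higher genes had no control peak left in the cut list, so that no lower value was possible there. Among genes with a control peak in the cut list, covered length was lower at 4 of 4 receptor genes and at 80.1% of 3423 genes. In the full lists, none of the control length was kept at 2 of the 10 genes, CSF2RB and IL6ST, as at 44.7% of all genes with a control peak. Near the 5′ ends the 10 genes had 66072 bp in the control and 17626 bp after treatment, and 26.7% of the control length was kept, against 20.4% pooled over all genes. The order of these shares depended on the peaks used, since with peaks of −log10 q of at least 5 only they were 6.13% and 11.1%, and with the trimmed control list 51.0% and 51.2%. It also leaned on 1 gene, since in the full lists IFNGR1 alone held 7273 of the 17626 bp. Only IFNGR1, CSF3R and IFNGR2 had a kept share above 20.4% near the 5′ end. The median kept share near the 5′ end was 15.8% over the 10 genes and 1.85% over all genes with control length there. Over the rest they had 144922 bp and 4189 bp, with 2.79% of the control length kept, against 7.88% over all genes. Some control length was kept over the rest at 5 of the 10 genes, against 32% of all genes with control length there, and these were CSF3R, TGFBR2, IL10RA, IFNGR1 and IFNAR2.

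Counted as peaks that share at least 1 bp with the other list, 9 of the 40 control peaks near the 5′ ends were kept, or 22.5% (95% Wilson interval 12.3 to 37.5, for counting error only), against 20.0% over all genes. Over the rest 7 of 154 were kept, or 4.55% (2.22 to 9.08), against 6.81%. Peaks were counted over their whole length, also where they run past the stretch. At IL10RA 2 control peaks count as kept, and for chr11:118007940-118015648 the overlap lies past the stretch. All 28 treated peaks at the 10 genes overlapped a control peak, as did 69.6% of the treated peaks over all genes. With control peaks under the smallest treated −log10 p left out, 25 of the 28 did, against 55.3%, and with the trimmed control list 11 of the 28, against 20.9%. Without the 3 genes on chromosome 21 the kept share of length was 30.0% near the 5′ ends and 4.21% over the rest.

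**Figure D4:**
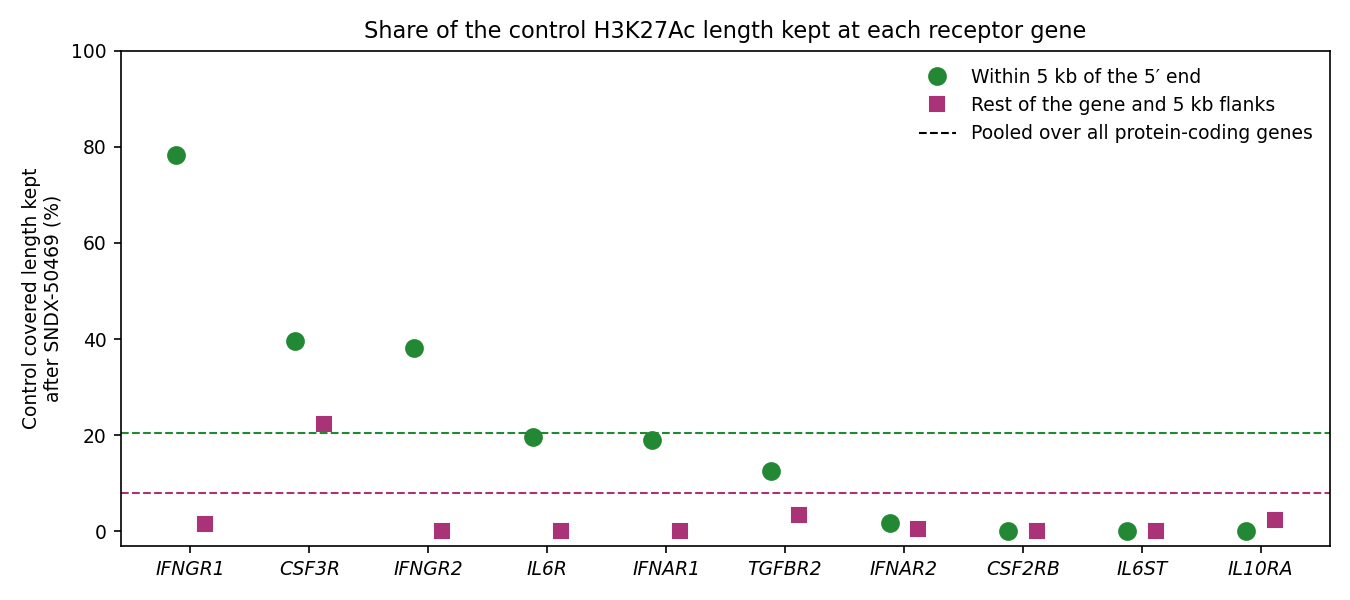
Percentage of the control H3K27Ac length that was also covered after SNDX-50469 at each receptor gene, near the 5′ end (circles) and over the rest (squares), with the value pooled over all protein-coding genes as dashed lines in the same colors. IFNGR1, CSF3R and IFNGR2 lie above the pooled 20.4% near the 5′ end, and over the rest only CSF3R lies above the pooled 7.88%.

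How much is kept goes with how much was covered in the control, and each gene is therefore set beside genes with a like control length, in bins chosen after the values were known. CSF3R, IL6R, IFNGR1, IFNGR2, IFNAR2 and TGFBR2 had 7000 bp or more near the 5′ end in the control. The 2223 protein-coding genes of that kind had a median kept share of 22.6% with quartiles of 6.81% and 42.3%, and 87.4% of them had a treated peak near the 5′ end. IFNGR1, at 78.2%, lay above the upper quartile, IFNAR2, at 1.62%, below the lower one, and the other 4 between the quartiles. IL10RA had no treated peak near its 5′ end, whereas 75.8% of the 2120 genes with 5000 to 6999 bp did, and CSF2RB had none, whereas 64.3% of those with 3000 to 4999 bp did. The bins match control length and not peak strength. With control peaks under the smallest treated −log10 p left out, IL10RA had 567 bp near the 5′ end and CSF2RB 0 bp. IL6ST, with under 1000 bp, fell in the bin in which 10.8% of the genes had a treated peak there. IFNAR1, in the bin of 1000 to 2999 bp, kept 19.0%, where the upper quartile was 17.4%.

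Over the rest of the gene CSF3R kept 22.3%, and the 1507 genes with 10000 to 19999 bp there had an upper quartile of 9.58%. IFNGR2, in the same bin, kept none, as did IL6R in the bin of 20000 to 39999 bp, in which 78.1% of 926 genes kept some.

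**Figure D5:**
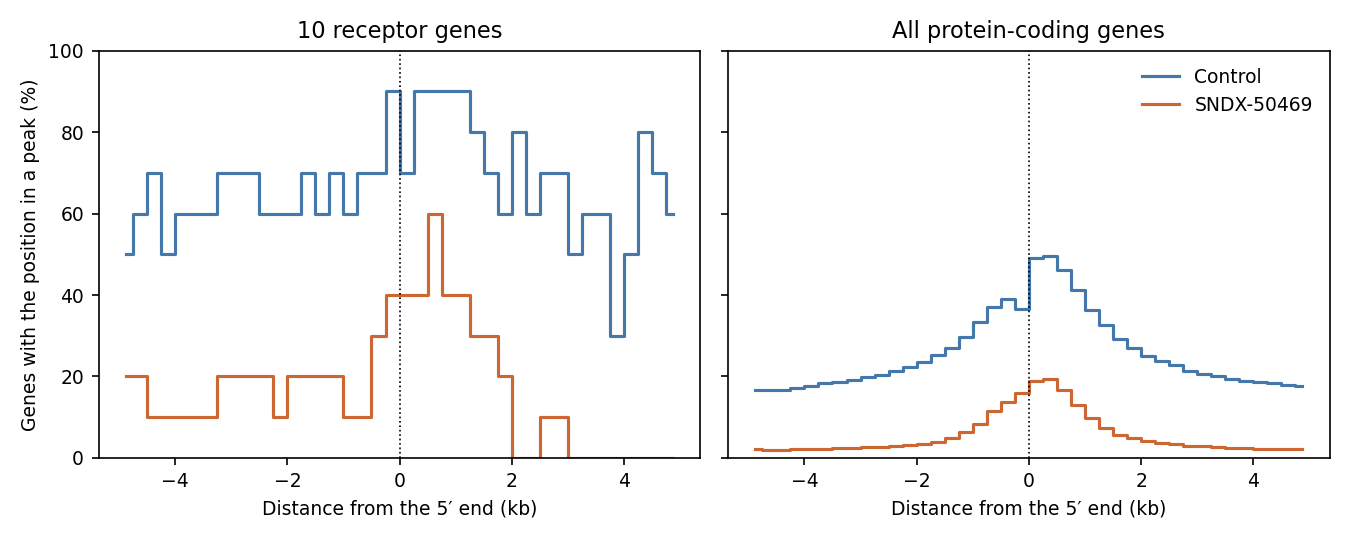
Percentage of genes at which a position lies in an H3K27Ac peak, by distance in kb from the outermost 5′ end, for the 10 receptor genes (left) and all protein-coding genes (right), in bins of 250 bp. The treated curve of the receptor genes is highest just after the 5′ end and is 0 from 3125 bp on.

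By position, 9 of the 10 receptor genes were covered 625 bp after the 5′ end in the control and 6 after SNDX-50469, against 46.1% and 16.6% of all genes. From 3125 bp after the 5′ end on, no receptor gene was covered at the bin centers after treatment. A treated peak of IFNGR1 from 4883 to 5090 bp after its 5′ end lay just past the last center. Every bin center before the 5′ end lay in the single treated peak of IFNGR1 that reaches 9349 bp upstream. At the centers from −4875 to −625 bp only 1 or 2 of the receptor genes were covered, so that this part of the curve rests mostly on IFNGR1. Over all genes the curves were highest 375 bp after the 5′ end, at 49.5% in the control and 19.5% after treatment.

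Other genes of the same pathways were taken from lists of 46 further cytokine receptors, 21 signal transducers, 14 ligands and 25 interferon-stimulated genes. Of the further receptors, 30 had a control peak near the 5′ end and 16 a treated one, or 65.2% and 34.8% against 67.3% and 37.4% of all genes, and the median kept share over the whole stretch was 1.58% for those with a control peak, against 4.50% for the 10 receptor genes and 2.41% for all genes. The further receptors include CSF2RA, IL3RA, CRLF2 and IL9R, which lie in pseudoautosomal regions and had no peak in either list. Since an absent peak is uncertain there, the shares of 65.2% and 34.8% may be too low. Covered length was lower at all 35 of the further receptors with a control peak. The longest control lengths were at IL1RAP, the accessory chain of the interleukin-1 receptor, with 73175 bp falling to 2740 bp, and at CSF1R, the macrophage colony-stimulating factor receptor gene, with 52599 bp falling to 3345 bp. TNFRSF1B, a tumor necrosis factor receptor gene, went from 42522 bp to 7239 bp, and TNFRSF1A, the other such gene, from 20208 bp to 7201 bp. IL17RA, an interleukin-17 receptor gene, had the longest treated length, 14487 bp of 38158 bp, with 38.0% kept. LIFR, OSMR and IL18R1 had treated peaks only, of 857, 3607 and 117 bp, and none of these lay over a 5′ end. LIFR and OSMR lie on chromosome 5, as do PRLR and GHR, whose 1349 and 2068 treated bp overlapped no control peak. Other listed receptor genes on that chromosome kept some, with 37.7% at IL7R and 6.36% at CSF1R. A treated peak there may therefore be a feature of the region and not of the gene, which was not tested.

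Downstream of the receptors, 20 of the 21 signal transducer genes had a control peak near the 5′ end and 11 a treated one (67.3% and 37.4% of all genes), with a median kept share of 6.48% (2.41% over all genes). Of the JAK kinase genes, JAK1 had 15580 bp in the control and 2233 bp after treatment, JAK2 10621 bp and 1279 bp, JAK3 1195 bp and 0 bp, and TYK2, the kinase bound to IFNAR1, 14313 bp and 471 bp. SMAD3, which carries the TGF-β signal, had the longest control length of the list and fell from 96287 bp to 1712 bp, with 1.55% kept. STAT5B fell from 38789 bp to 635 bp, and SMAD7, an inhibitor of the same pathway as SMAD3, from 35147 bp to 3359 bp. CISH, which encodes an inhibitor of STAT5 signaling, kept 58.2% of 14022 bp, and PTPN6, which encodes a tyrosine phosphatase, 35.2% of 24117 bp. The other inhibitor genes of the list kept less: SOCS1, with 9895 bp in the control, and SOCS3, with 10191 bp, had no treated peak, and PIAS1 kept 1.73% of 14122 bp. STAT2 went from 13426 bp to 3453 bp, with 23.4% of the control length kept and no treated peak near the 5′ end.

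Among the ligand genes 12 of 14 had a control peak near the 5′ end and 2, TGFB1 and OSM, a treated one, against 67.3% and 37.4% of all genes. TGFB1 went from 25105 bp to 7126 bp and OSM, an interleukin-6 family cytokine gene, from 12584 bp to 3707 bp, while IL10 had 10372 bp in the control and none after treatment. IL11 had 1991 bp and 319 bp. The interferon-stimulated genes are induced through the IFNAR and IFNGR receptors. Their median control length was 1989 bp, against 3682 bp over all genes. Of the 25, 20 had a control peak near the 5′ end and 3 a treated one, against 67.3% and 37.4% of all genes. These 3 were XAF1, which went from 12874 bp to 2935 bp, BST2, from 7284 bp to 1172 bp, and IFI35, from 8648 bp to 600 bp. MX2 had the longest control length, 25497 bp, of which 455 bp were left. None of these genes had a treated peak over the 5′ end itself, and 17 of the 22 with a control peak kept none of it, as did 44.7% of all genes with a control peak.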

How the data were processed

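H3K27Ac was measured by ChIPmentation in 1 control and 1 SNDX-50469-treated MOLM13 library. Per the labels' processing notes the authors used Trim Galore 0.6.5, Bowtie2 2.3.4.2, Picard 2.9.0 and MACS2 2.1.2 with GRCh38, whereas the study's methods name TopHat2 and hg38; the calling options and the use of input are not given in the sources used here. The deposited broad peak lists hold, for each peak, a score (10 times −log10 q), a ratio (fold enrichment over the local background), a −log10 p and a −log10 q value, as the authors' peak caller wrote them. Read counts are not used here, so depth is unknown and intervals cover counting error only.

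From these lists, covered length, kept length and kept peaks (at least 1 bp shared) were computed within 5 kb of the outermost 5′ end and over the rest of each gene with 5 kb on both sides. A control peak that reached into a stretch was judged as kept over its whole length, also beyond the stretch. Of 20037 protein-coding genes of RefSeq GRCh38.p14, 19675 had a strand, 15843 from the RefSeq promoter table and 3832 from GENCODE by symbol. Only 8 of the 10 receptor genes had a promoter entry. Promoter motifs were searched on both strands over the 250 bases before each start. The interval arithmetic was tested on simulated peaks. Python 3.11.15, numpy 2.4.6, pandas 2.3.3, scipy 1.17.1 and matplotlib 3.10.9 were used. With 1 library per condition no test was run. The genes named were the 10 receptor genes, genes within their stretches and, from each list, the 3 longest in control and the 3 longest after treatment. Genes of the partner chains, JAK kinases, SOCS genes, PIAS1, markers and receptors with treated peaks only were added after their values were seen. Other receptors on chromosome 5 and in the pseudoautosomal regions were also added in this way. The receptor genes and the lists were chosen with earlier results of these data known. Alternatives changed the peak cutoff, the window, the flanks, the overlap, the starts used and the genes included.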

Additional observations from a re-analysis of the deposited data

How the results depend on the processing

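No paired analysis was possible because there was 1 library for each condition, with no replicate numbers. Of 76 alternative values of the main results, 58 stayed within the range set for them and 18 did not; of 79 for single genes, 69 did and 10 did not. With peaks of −log10 q of at least 5 only, 1 receptor gene had a treated peak near the 5′ end (4.09% of all genes), the median kept share was 0% (0% over all genes), the length kept near the 5′ ends 6.13% (11.1%, so that the receptor genes were then below all genes) and the control peaks kept over the rest 0%. With control peaks under the smallest treated −log10 p left out, the median was 9.95%, and 50% of the control peaks were kept near the 5′ ends and 18.5% over the rest; over all genes the median was then 9.82%. With the control list trimmed to its strongest 3632 peaks, which cover the same length as the treated list, 4 receptor genes had a control peak near the 5′ end (13.0% of all genes). Covered length was lower after treatment at these 4 (13.9% of all genes and 80.1% of the 3423 with a control peak left). The 4 others with peaks (IFNAR1, IFNAR2, IL10RA and TGFBR2) had treated peaks only. The median was then 53.8% (46.8%), the length kept near the 5′ ends 51.0% (51.2% over all genes), the length kept over the rest 4.32% (34.0%), and the control peaks kept 100% (4 of 4) near the 5′ ends and 0% (0 of 1) over the rest. The cause of these shifts beyond the removal of weaker peaks was not tested. Within 2 kb of the 5′ ends 41.4% of the length and 40% of the peaks were kept. With 50 kb on both sides 7.99% of the length was kept over the rest. With at least 50% of a control peak required to be covered, 5.00% of the peaks were kept near the 5′ ends and 0% over the rest. The unknown depth limits all values: a missing peak does not show that the mark was absent.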
